A study of Rattus norvegicus with 15 samples.

Results

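The 5 mammary tumours described here were the zinc-adequate controls of a rat carcinogenesis study, chosen by their label of negative control, and they made up 5 of the 15 tumours profiled. The rats were female Sprague-Dawley animals. Dams, 16 per group, ate chow with 35 mg/kg zinc (adequate, read here as the group labelled negative control), 3 mg/kg (deficient) or 180 mg/kg (supplemented) from gestation day 10 to weaning at day 21, and their daughters stayed on the same chow to day 51. On that day every rat, controls included, received DMBA (7,12-dimethylbenz[a]anthracene) at 50 mg/kg by stomach tube, and all 3 groups then ate adequate zinc until tumours were taken at 180 days. A free-text label places the tissue at postnatal day 21, against the tissue and age fields and the extraction protocol, which name tubular or papillary tumours of 180 days; the latter were followed. The labels do not say that the tumours of a group came from separate animals, so the spread between tumours may hold less than the spread between rats.

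DMBA is a polycyclic hydrocarbon that cytochrome P450 enzymes of the Ah receptor pathway turn into DNA-reactive forms, and a dose at puberty gives rats mammary carcinomas that often depend on prolactin and ovarian hormones. A mammary gland holds luminal cells, which can make milk proteins, and a contractile basal or myoepithelial layer, set in a stroma of fibroblasts, vessels, fat and leukocytes. Milk protein genes are switched on in luminal cells by prolactin through the kinase JAK2 and the transcription factor STAT5, which binds a palindromic element in casein promoters.

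Each tumour was hybridised to 1 Agilent single-colour rat array. A level below is the log2 processed signal of a gene's probe minus the 75th percentile of its array, so that 0 marks a spot at that percentile and 1 unit a doubling. A spot was detected when the scanner software marked it well above background. The probes' own binding differs, so an order of brightness between genes is an order of spots and not of transcript amounts. No spot on these arrays was saturated. Tumours 2 and 5 gave dim arrays: the 75th percentile was 55.9 and 89.9 intensity units there against 164 to 171 on the other 3, and across the 5 arrays 37.4% to 54.0% of 43379 spots were detected. Where a gene was not detected its level is only a bound, set by the array: the lowest detected level was -1.18 in tumour 2 and -1.74 in tumour 5, against -3.03 to -2.87 in the other 3.

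Of 13832 genes with a RefSeq symbol, 6355 were detected in all 5 control tumours, which is 45.9%, and 4538 in none. Without the 2 dim arrays the count was 7934. The 45.9% is the share to set beside each list's detection count below. Of the 361 measured genes on lists of mammary, stromal, immune and other markers, 183 were detected in all 5 tumours (50.7%; 214 without the dim arrays). By kind of list, 41 of 62 mammary genes (66.1%), 40 of 77 immune genes (51.9%) and 28 of 57 stromal genes (49.1%) were detected throughout. All 21 measured housekeeping genes were. Lists for liver, pancreas, neurons and retina, tissues that the tumours should lack, had 2 of 53 measured genes detected in all 5 (3.77%): Ctrb1, a pancreatic protease precursor, at 0.74 ± 0.33, and Grin1, a glutamate receptor subunit, at -0.43 ± 0.55 (mean ± SD, n = 5, as for every such value below). In bulk tissue, fewer cells of a type and less RNA per cell cannot be told apart.

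**Figure D1:**
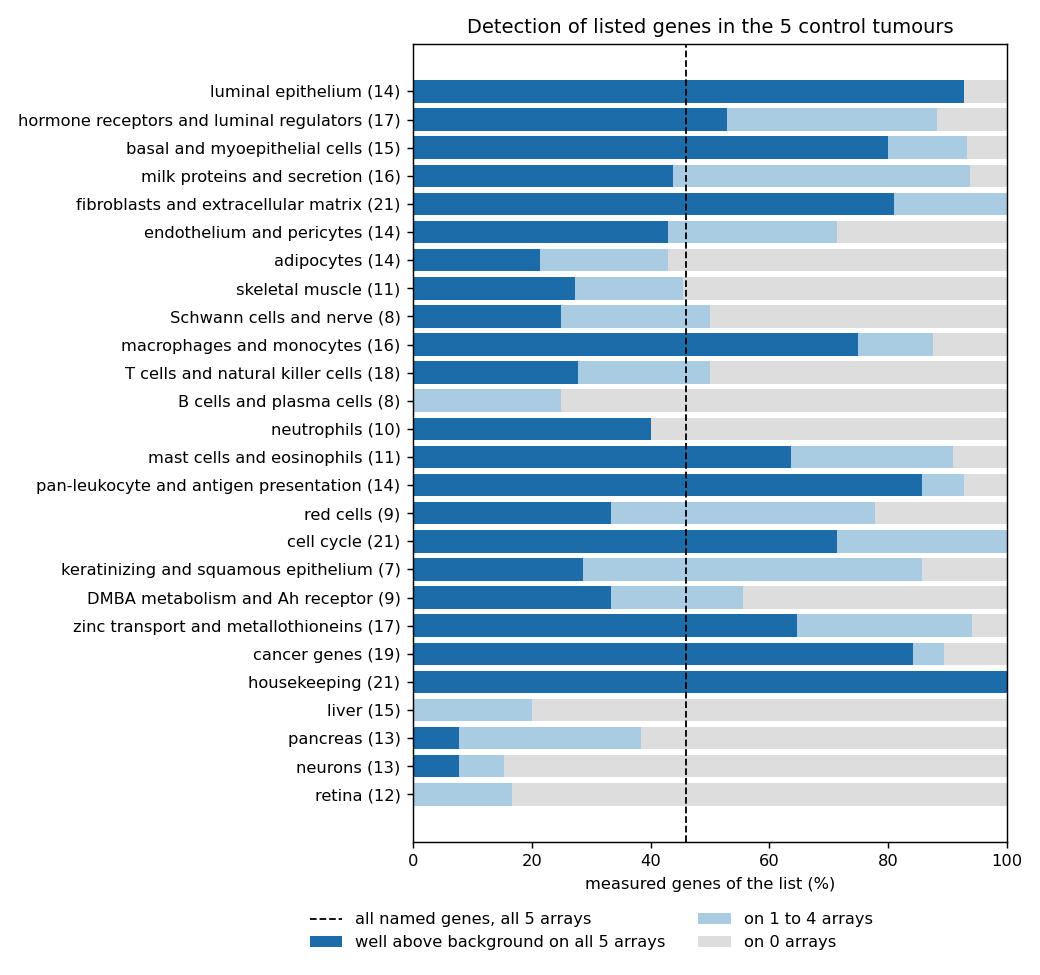
Share of each list's measured genes (number in parentheses) detected in all 5, in 1 to 4, or in 0 of the control tumours. The dashed line marks the 45.9% of all named genes detected in all 5; housekeeping genes reach 100%, luminal genes 92.9%, and B cell genes have none.

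The brightest spots were those of ribosomal protein genes, which took all of the top 10 places and 39 of the top 50. Rplp1, an acidic protein of the ribosomal stalk, led with 10.28, 10.05, 9.76, 9.95 and 10.71 in tumours 1 to 5. The next 9 were Rpl37l1, Rpl37a, Rps23, Rpl8, Rpl41, Rps16, Rps6, Rps2 and Rpl35, with means from 9.38 down to 8.98. Among them Rps6, a phosphoprotein of the small subunit, varied most: it measured 9.45, 8.96, 7.94, 9.27 and 9.62, low in tumour 3 alone (SD 0.67, against 0.15 to 0.37 for the other 9). Of 86 measured genes with a ribosomal protein symbol, 79 were detected throughout, with a median SD of 0.22. Together the 86 gave 25.6% to 32.3% of the summed signal of named genes on each array, most in tumour 5. Ribosomal protein genes have many near-identical processed copies, which a probe may not separate.

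Bright genes outside the ribosome included epithelial, housekeeping and antigen presentation genes. Krt18, a keratin of simple and luminal epithelium, stood at 8.15 ± 0.39, beta-actin (Actb) at 8.34 ± 0.37, and B2m, the light chain of class I antigen-presenting molecules, at 8.21 ± 0.18. Penk, which encodes the opioid precursor proenkephalin, was less bright but detected in all 5 tumours, at 4.64 ± 0.62 on the probe used. A second Penk probe was detected in none.

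The steadiest genes were nearly level across tumours. Among 4828 genes detected throughout with a mean level of at least 0, the 10 with the smallest SD (0.03 to 0.05) were Kazn, Dnpep, Tpd52, Stk16, Cdipt, Lmna, Nit1, Abl1, Ube3b and Rbbp7. Dnpep, an aminopeptidase, measured 5.04, 4.99, 5.04, 5.01 and 5.06. Lmna, which encodes the lamins of the nuclear envelope, measured 4.62, 4.60, 4.65, 4.62 and 4.72. These values are the lower end of a ranking and were chosen for it. In the other diets, which the ranking did not use, 1 of the 10 exceeded the median SD in deficient tumours (Abl1, SD 0.39) and 1 in supplemented tumours (Abl1, SD 0.27), where the medians over the same 6355 genes were 0.35 and 0.25. A second Dnpep probe gave an SD of 0.26, and a second Kazn probe, detected in 4 tumours, 0.23. The further Stk16 probes gave 0.10 and 0.38. A second Abl1 probe was detected in none of the control tumours.

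Most genes varied modestly: over the 6355 detected genes the median SD was 0.30, the middle 50% lay between 0.22 and 0.42, and 95% lay below 0.75. An SD over 1 was found for 106 genes, or 1.67%. Those closest to this limit were Tspan1 (1.003) and Ccl7 (1.002) just inside it and Mgp (0.999) and Ptprv (0.995) just outside. The count moved with the processing: it was 40 after normexp background correction with quantile normalization, 100 after quantile normalization of the processed signals alone, 47 in the authors' deposited values, and 226 when detection in 3 of the 5 tumours was enough. Tumour 4 held the highest level of 33 of the 106 genes and tumour 5 of 27, whereas tumour 1 held the lowest level of 28 and tumour 3 of 27.

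**Figure D2:**
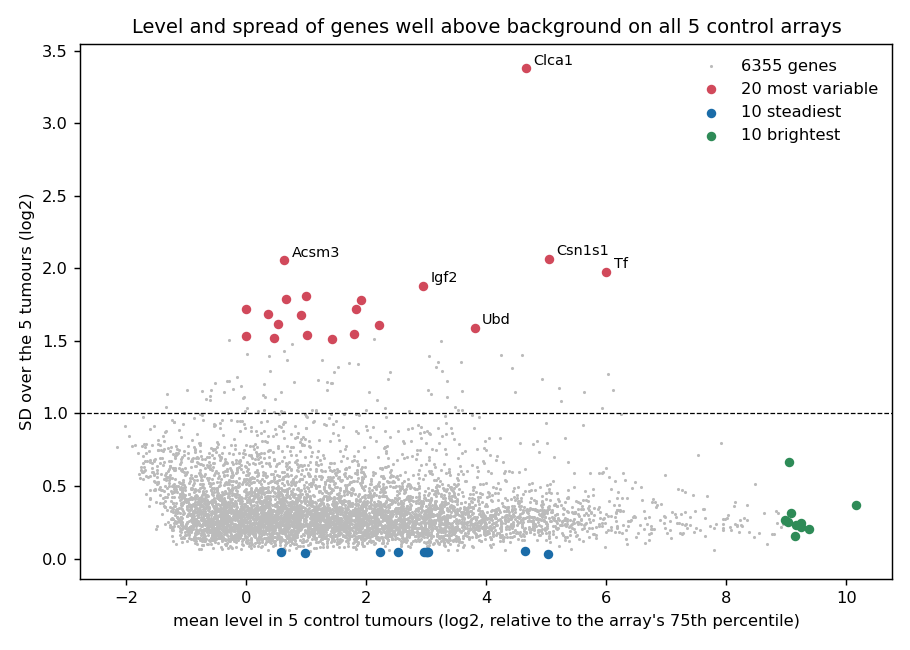
Mean level (x axis, log2 relative to the array's 75th percentile) against the SD over the 5 control tumours (y axis, log2) for the 6355 genes detected in all 5. The dashed line marks an SD of 1; Clca1 lies alone at 3.38, and the 10 brightest genes have SDs of 0.15 to 0.67.

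Clca1, a secreted protein of mucus-producing epithelia, varied most of all detected genes. It measured 4.36, 1.26, 1.46, 8.04 and 8.17 in tumours 1 to 5 (SD 3.38), a 121-fold difference between the highest and the lowest tumour. Tumours 4 and 5 were high, tumours 2 and 3 low and tumour 1 lay between. Arrays 4 and 5 shared a slide; of the arrays of other diets on that slide, replicate 5 of the deficient group gave 5.85 and replicate 5 of the supplemented group 8.94, while on other slides supplemented replicates 1 to 4 gave 6.39 to 7.42 and deficient replicates 1 to 4 gave 1.56 to 6.42. Under the other 4 scalings the SD of Clca1 was 3.10 to 3.37. Tf, which encodes the iron carrier transferrin, followed the same division, with 6.30, 4.20, 3.72, 7.90 and 7.88.

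The imprinted neighbours Igf2 and H19 were also highest in tumour 5. Igf2, a fetal growth factor, measured 4.14, 1.84, 0.70, 2.57 and 5.46 (SD 1.88), a 27.1-fold range. H19, a non-coding RNA, measured 2.93, -0.86, -1.43, 3.85 and 5.27 and was detected in all but tumour 2, where the value is a bound. Tumours 2 and 3 were the low ones for Igf2, and tumour 3 had the lowest detected level of H19.

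Several other genes of the 20 with the largest SD were highest in tumour 4 or 5. Fkbp5, a co-chaperone of steroid receptors that glucocorticoids induce, measured 1.06, 0.34, 2.00, 3.40 and 4.24. Sgk1, a kinase of ion transport that is also induced by glucocorticoids, measured 1.88, -0.65, 0.45, 3.11 and 2.37. In both genes tumours 4 and 5 were the highest and tumour 2 the lowest. The SD of Fkbp5 was 1.61 over the 5 tumours and 0.97 within scan days, on which tumours 1 and 2 and tumours 3 to 5 were separated, and that of Pcp4 was 1.61 and 1.06; whether scanning had a part in either was not tested. Ubd, a ubiquitin-like modifier induced by inflammatory cytokines, measured 3.50, 2.61, 2.16, 4.68 and 6.07. Hapln2, a hyaluronan link protein, measured 0.67, 1.34, 0.33, 2.52 and 4.12, and Hbb, a beta-globin, -0.16, 1.47, -1.81, 0.76 and 2.08. Arrays 4 and 5 shared a slide with replicate 5 of the supplemented and of the deficient group. The supplemented replicate was highest of its group for Fkbp5 (4.42), Sgk1 (3.78), Ubd (5.31), Hapln2 (3.30) and Igf2 (6.45). It was not highest for Hbb and was lowest for Tf (5.42). The deficient replicate was highest of its group for none of these genes. Whether the slide had a part was not tested.

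The reverse pattern, with tumour 4 lowest and tumour 2 highest, was seen in Rbp7, Padi4, Smim38 and Pcp4. Rbp7, a retinol-binding protein, measured 0.70, 3.16, 2.05, -1.67 and 0.76. Padi4, which converts arginine in proteins to citrulline, measured 1.19, 2.98, 1.03, -1.91 and 0.01. Spink5, a serine protease inhibitor of stratified epithelia, and Fcgbpl1 were highest in tumour 2 as well, at 2.03 and 3.86. Duox2, an oxidase that makes hydrogen peroxide, was high in tumour 3 alone, at 3.14 against -1.44 to 0.24 elsewhere. Acsm3, a medium-chain fatty acid ligase, was high in tumours 1 and 5, at 3.48 and 2.06 against -1.40 to -0.29. Cilp, an extracellular matrix protein, was low in tumour 1 alone, at -1.92 against 0.92 to 2.43.

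For 7 of these genes 1 tumour moved the SD by over 1.5 times. Without tumour 1 the SD of Cilp was 0.63 (1.68 with it). Without tumour 3 it was 0.76 for Duox2 (1.68), 1.14 for Fcgbpl1 (1.78) and 0.96 for Hbb (1.52). Without tumour 4 it was 1.17 for Rbp7 (1.81) and 1.14 for Smim38 (1.72), and without tumour 5 it was 0.97 for Hapln2 (1.55). Myh11, smooth muscle myosin, varied by 1.54 on the probe used and by 0.56 on another. After normexp and quantile normalization 15 of the 20 kept an SD over 1, and Tnnt2, cardiac troponin T, had the smallest (0.75, against 1.53 as processed here).

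**Figure D3:**
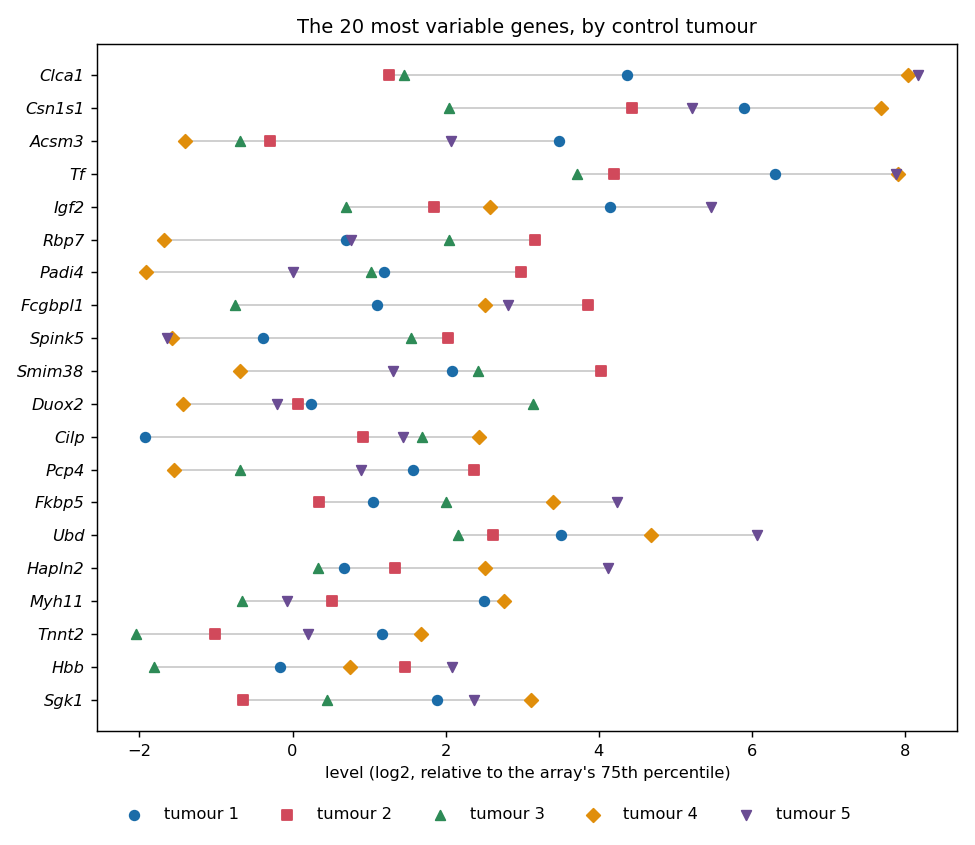
Level in each control tumour (x axis, log2 relative to the array's 75th percentile) of the 20 genes with the largest SD, ordered from the largest at the top. Clca1 spans 1.26 to 8.17; tumours 4 and 5 lie to the right for Clca1, Tf, Fkbp5 and Ubd, and tumour 4 lies farthest left for Rbp7, Padi4, Smim38 and Pcp4.

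Genes that varied in the controls often varied in the other diets too, in tumours that played no part in the ranking. Of the 106 genes with an SD over 1 in controls, 45 (42.5%) had one among the 5 deficient tumours, where 216 of all 6355 genes (3.40%) did, and 57 (53.8%) among the 5 supplemented tumours, where 162 (2.55%) did. The shared genes were 20.8% of the deficient set and 35.2% of the supplemented set, and 29 genes passed in all 3 groups. Across the 6355 genes the SD in controls ranked with that in deficient (Spearman's rho 0.39) and in supplemented tumours (0.44) as a description, since genes are not independent. Igf2 had an SD of 2.56 in deficient and 2.39 in supplemented tumours, and Csn1s1 of 1.19 and 1.89. Tnnt2 (0.39 and 0.38) and Padi4 (0.57 and 0.70) varied less there. For Clca1 the SD was 1.95 and 0.93. The 6355 genes were chosen by detection in the controls, so SDs in the other diets can include undetected values. Spink5, for one, was detected in 3 of 5 deficient and 3 of 5 supplemented tumours. The 106, 216 and 162 genes are therefore not like counts, and no difference in spread between diets was tested.

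**Figure D4:**
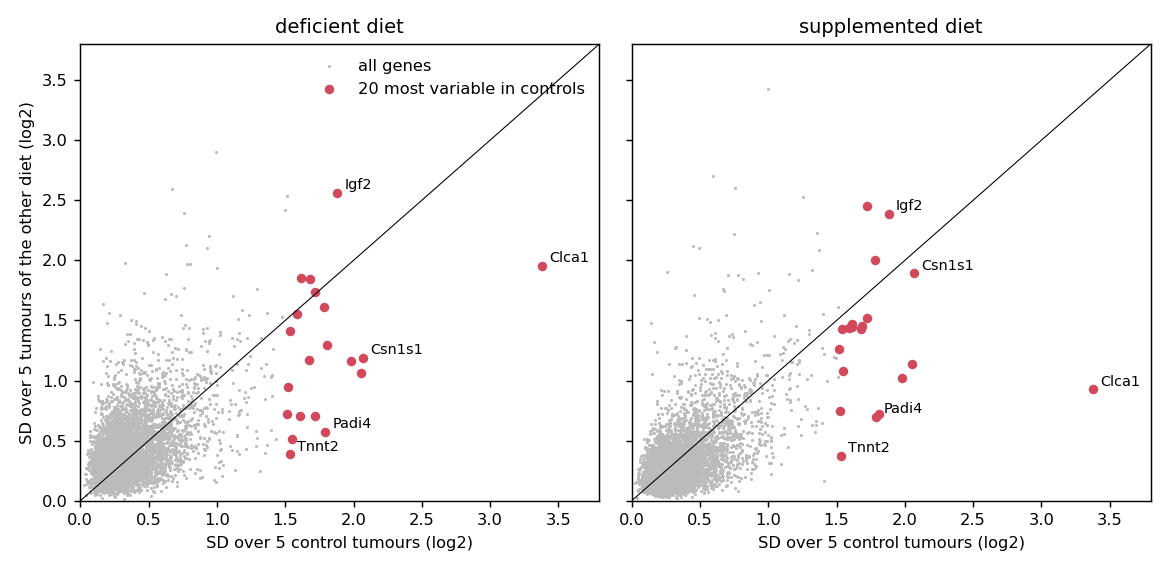
SD over the 5 control tumours (x axis, log2) against the SD over the 5 deficient (left) or 5 supplemented tumours (right) for the 6355 genes detected in all controls; red points are the 20 most variable in controls and the line marks equal SDs. Igf2 lies above the line in both panels, and Clca1 and Tnnt2 lie below it.

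Luminal epithelial genes were the most widely detected marker list after housekeeping genes, with 13 of 14 measured genes in all 5 tumours (against 45.9% of all genes), and none of the 13 had an SD over 1. Their mean level stayed within 0.48 units between tumours. Epcam, an epithelial adhesion molecule, measured 5.32, 4.39, 5.17, 4.91 and 4.86, and E-cadherin (Cdh1) 5.48, 4.93, 5.59, 4.80 and 4.46. Krt8, the keratin partner of Krt18, measured 3.12, 3.16, 3.13, 3.18 and 2.77. Cldn7, a tight junction claudin, was low in tumour 2, at 0.81 against 2.43 to 2.98. Elf3, an epithelial transcription factor, was detected in none.

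Of the hormone receptors and luminal regulators, 9 of 17 were detected in all 5 tumours (52.9%, near the 45.9% of all genes). Stat5a, which carries the prolactin signal to casein genes, measured 5.32, 5.62, 5.71, 5.19 and 5.25, without a high or low tumour. The prolactin receptor gene Prlr measured 3.07, 2.09, 2.28, 1.37 and 2.48, and the progesterone receptor gene Pgr 0.15, 0.67, 0.66, 0.16 and 0.79. The oestrogen receptor gene Esr1 was detected in 2 tumours and its pioneer factor Foxa1 in 2, whereas Gata3, a luminal transcription factor, was detected in all 5 at 1.86 ± 0.65. Areg, an EGF receptor ligand that oestrogen induces in the gland, stood at 5.94 ± 0.60, the EGF receptor gene itself (Egfr) at 2.64 ± 0.47 and Erbb2 at 1.45 ± 0.54. Erbb3 and Tff3 were detected in none.

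Basal and myoepithelial genes accompanied them, with 12 of 15 measured genes detected throughout (80%, against 45.9% of all genes). Krt14 measured 4.17, 3.90, 3.55, 4.87 and 4.27, and Krt5, its basal partner, 2.93, 4.12, 3.19, 3.68 and 3.21. Tumour 4 held the highest level of 8 of the 12 and tumour 3 the lowest of 6. As a scale for such counts, tumours 1 to 5 were highest for 4, 1, 1, 9 and 6 of the 21 housekeeping genes. They were lowest for 4, 8, 4, 1 and 4 of them. The same counts over all detected genes are not given here. Tagln, a smooth muscle protein of contractile cells, was lowest in tumour 3 (2.69) and highest in tumour 4 (4.71). Sox10, listed with Schwann cells and also known from mammary epithelium, stood at 3.88 ± 0.25, while the myelin gene Mbp was detected in none.

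Milk genes were the mammary list that differed most between tumours. Of 16 measured genes 7 were detected in all 5 (43.8%, near the 45.9% of all genes), 8 in some and 1, Cd36, in none. For the 7 the median SD was 1.24, against 0.30 for all detected genes, and 4 had an SD over 1. Csn1s1, an alpha casein, measured 5.89, 4.43, 2.04, 7.68 and 5.21, a 49.7-fold range. Csn3, the casein that stabilises micelles, measured 6.79, 5.56, 4.03, 7.22 and 6.53. Lalba, the regulatory subunit of lactose synthase, measured 5.71, 4.52, 2.75, 6.21 and 3.79. All 3 were highest in tumour 4 and lowest in tumour 3, as was Xdh, a component of the milk fat globule membrane (1.51 and -0.97). Other members did not share this order. Csn2, beta casein, measured -0.73, 1.02, -0.35, 0.46 and 0.51, and Spp1, osteopontin, was highest in tumour 5 (3.61) and lowest in tumour 2 (0.33).

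Several milk genes were detected in a few tumours only. Csn1s2a was detected in tumour 4 alone, at 2.41, which is the tumour with the most Csn1s1, Csn3 and Lalba signal. Glycam1, a mucin of milk, was detected in 4, and Wap, the whey acidic protein gene, in 2. Elf5, a transcription factor of secretory luminal cells, was detected in tumours 1, 4 and 5, at -1.29, -1.17 and -1.02, and not in tumours 2 and 3. The mean of the 7 milk genes detected throughout was 3.66, 3.08, 1.97, 4.29 and 3.47, and tumour 3 was lowest for 5 of the 7 under each of the 5 scalings.

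The promoters of 3 caseins, whose signals ranged from all tumours (Csn1s1, Csn2) to tumour 4 alone (Csn1s2a), are shown because each carries the STAT5-type palindrome TTCNNNGAA (capitals) about 100 bases before the start of transcription. They run from 250 bases before to 50 after the start in RefSeq's GRCr8 annotation, all on chromosome 14, at chr14:20638800-20639099 (minus strand), chr14:20574422-20574721 (minus strand) and chr14:20601574-20601873 (plus strand).
Csn1s1: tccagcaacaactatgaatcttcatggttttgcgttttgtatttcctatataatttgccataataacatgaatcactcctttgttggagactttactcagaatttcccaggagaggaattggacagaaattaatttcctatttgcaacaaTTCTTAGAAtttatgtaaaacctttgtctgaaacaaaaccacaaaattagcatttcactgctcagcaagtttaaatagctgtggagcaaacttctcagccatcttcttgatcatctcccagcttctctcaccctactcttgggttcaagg
Csn1s2a: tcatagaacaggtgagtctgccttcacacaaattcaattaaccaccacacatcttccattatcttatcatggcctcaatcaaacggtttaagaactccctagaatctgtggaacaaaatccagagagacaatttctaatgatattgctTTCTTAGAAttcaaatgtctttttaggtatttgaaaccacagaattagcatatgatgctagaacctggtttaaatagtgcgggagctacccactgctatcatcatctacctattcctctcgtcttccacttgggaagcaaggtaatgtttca
Csn2: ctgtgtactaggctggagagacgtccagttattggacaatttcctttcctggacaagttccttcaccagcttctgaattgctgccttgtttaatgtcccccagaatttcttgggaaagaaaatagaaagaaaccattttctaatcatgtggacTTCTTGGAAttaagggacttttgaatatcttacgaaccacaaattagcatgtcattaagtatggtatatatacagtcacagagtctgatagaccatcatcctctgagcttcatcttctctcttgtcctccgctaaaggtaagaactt
The palindrome, which reads the same on the opposite strand, occurred in 5 of the 15 milk gene promoters with a RefSeq entry (the others were Csn1s2b and Glycam1) and in 8.87% of all 33469 promoters of this length. It was not found in this window for Csn3 or Lalba, although their order across tumours was like that of Csn1s1. A match is a run of letters and not a measured binding site.

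Fibroblast and matrix genes were widely detected, 17 of 21 in all 5 tumours (81.0%, against 45.9% of all genes). The mean level of the 17 spanned 1.83 units between tumours, against 0.25 for housekeeping genes. Tumour 4 held the highest level of 14 of the 17 and tumour 1 the lowest of 9. Tumour 4 was also highest for 9 of the 21 housekeeping genes and for 33 of the 106 genes with an SD over 1. Tumour 1 was lowest for 4 of those 21 and 28 of those 106. Col1a1, a chain of type I collagen, measured 3.68, 5.39, 5.94, 6.45 and 4.71, and Col3a1 2.69, 5.30, 4.94, 5.46 and 4.00. Pdgfra, a growth factor receptor of fibroblasts, varied most of the list, with -1.58, 1.28, 1.68, 1.79 and -0.03. Postn, a matrix protein of activated stroma, measured 1.21, 3.29, 3.47, 4.28 and 3.11. The mean of the 17 was 2.20, 3.50, 3.40, 4.03 and 2.88, and tumour 4 remained highest and tumour 1 lowest under all 5 scalings. Vim, a filament protein of mesenchymal cells, moved less (2.46, 2.64, 2.35, 3.28 and 2.65).

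Of 14 measured endothelial and pericyte genes 6 were detected throughout (42.9%, near the share of all genes), among them the VEGF receptor Kdr at 2.08 ± 0.55 and Notch3, a receptor of mural cells, at 4.81 ± 0.34, while Pecam1, Tie1, Tek and Emcn were detected in none. Of 14 adipocyte genes 3 (21.4%) were detected throughout, namely Cfd, Dgat2 and Lpl, and 8 in none. The defining adipocyte genes Fabp4, Cidec, Lep and Pparg were among those 8, and Adipoq was detected in 1 tumour. Of 11 skeletal muscle genes 3 were detected throughout (Mb, Myh2 and Tnni2) and 6, including Ckm and Myh4, in none.

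Of 16 macrophage genes 12 were detected in all 5 tumours (75%, against 45.9% of all genes). Tumour 5 held the highest level of 10 of the 12 under each of the 5 scalings. As processed here it was highest for 6 of the 21 housekeeping genes. Cd68, a lysosomal protein of macrophages, measured 2.60, 2.17, 3.04, 2.92 and 4.46, and C1qb, a chain of complement C1q, 4.88, 5.30, 5.20, 5.44 and 6.44. Cd74, the invariant chain of class II molecules, measured 4.74, 5.92, 4.68, 5.79 and 6.89. Tumour 5, whose array was dim, was above the other 4 in all 3. The exceptions among the 12 were Csf1r and Cd14. Csf1r was highest in tumour 2 (-0.11, against -0.46 in tumour 5). Cd14 was highest in tumour 4 (3.59) and lowest in tumour 5 (2.52). Cd163, a scavenger receptor of resident macrophages, and Marco were detected in none. Of 14 pan-leukocyte and antigen presentation genes 12 were detected throughout, with RT1-Db1, a class II chain, ranging from 2.29 in tumour 3 to 4.42 in tumour 5.

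Of 18 T and natural killer cell genes 5 were detected in all 5 tumours (27.8%), among them Cd3d, Cd3e, Cd3g and Nkg7. Cd3d, a chain of the T cell receptor complex, measured 1.22, 2.28, 1.47, 1.53 and 2.68, highest in tumours 5 and 2, whose arrays were the dim ones; whether dimness has a part in that order was not tested. The coreceptor genes Cd4 and Cd8a were detected in none, whereas Cd8b, the other chain of the CD8 coreceptor, and the granzyme gene Gzma were detected in all but tumour 2. Of 8 B cell and plasma cell genes 0 were detected throughout and 6 in none, among them Cd79b. Of 10 neutrophil genes 4 were detected throughout, led by Lcn2, which epithelia also make, at 5.73 ± 0.59, while the receptors Cxcr2 and Csf3r were detected in none.

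Of the mast cell and eosinophil list 7 of 11 measured genes were detected in all 5 tumours (63.6%, against 45.9% of all genes). Cma1, a chymase, measured 4.64, 4.09, 2.81, 4.09 and 4.06, and Cpa3, a carboxypeptidase of mast cell granules, 2.01, 0.40, -0.49, 0.26 and 1.07. Tumour 1 was highest and tumour 3 lowest for 5 of the 7 each, and this held under each of the 5 scalings except that tumour 3 was lowest for 6 after normexp and in the deposited values. The receptor gene Kit was detected in 1 tumour, and Epx, an eosinophil peroxidase, in none.

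Of 9 measured red cell genes 3, all globins, were detected in all 5 tumours, 4 in some and 2 in none. Hbb-b1 measured 5.01, 5.60, 3.50, 4.96 and 5.92, and Hba-a3, an alpha-globin, 4.71, 5.54, 3.13, 4.80 and 6.49. For Hbb, Hbb-b1 and Hba-a3 alike, tumour 5 was highest and tumour 3 lowest, under each of the 5 scalings. Rat globin genes have near-identical copies that a probe may not separate. Alas2, which starts haem synthesis in red cell precursors, was detected in tumours 1, 4 and 5 and was highest in tumour 5 (-0.72). Ahsp, Hbe2 and Epor were detected in 2 tumours each, and the red cell membrane genes Slc4a1 and Epb42 in none.

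Cell cycle genes detected throughout were highest in tumour 3. Of 21 measured genes 15 were detected throughout, and tumour 3 held the highest level of all 15 (14 of 15 after quantile normalization of the processed signals, and 15 under the other 4 scalings). Among the 21 housekeeping genes tumour 3 was highest for 1. Cdk1, the kinase that drives entry into mitosis, measured 3.45, 2.45, 4.77, 3.62 and 2.75. Plk1, a mitotic kinase, measured 2.16, 1.64, 3.56, 2.42 and 1.73, and Birc5, survivin, 1.62, -0.25, 2.88, 1.67 and 0.80. The lowest tumour was 2 for 9 of the 15 and 5 for the other 6; these had the dim arrays, and what part dimness had in their low values was not tested. Tumour 3 was above tumours 1 and 4, whose arrays were about as bright, for all 15. Ccnd1, cyclin D1, was bright in every tumour, at 6.59, 6.97, 7.17, 7.16 and 6.34. Of the genes detected throughout, tumour 3 was lowest for 5 of 7 milk genes, 5 of 7 mast cell and eosinophil genes and all 3 globins.

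**Figure D5:**
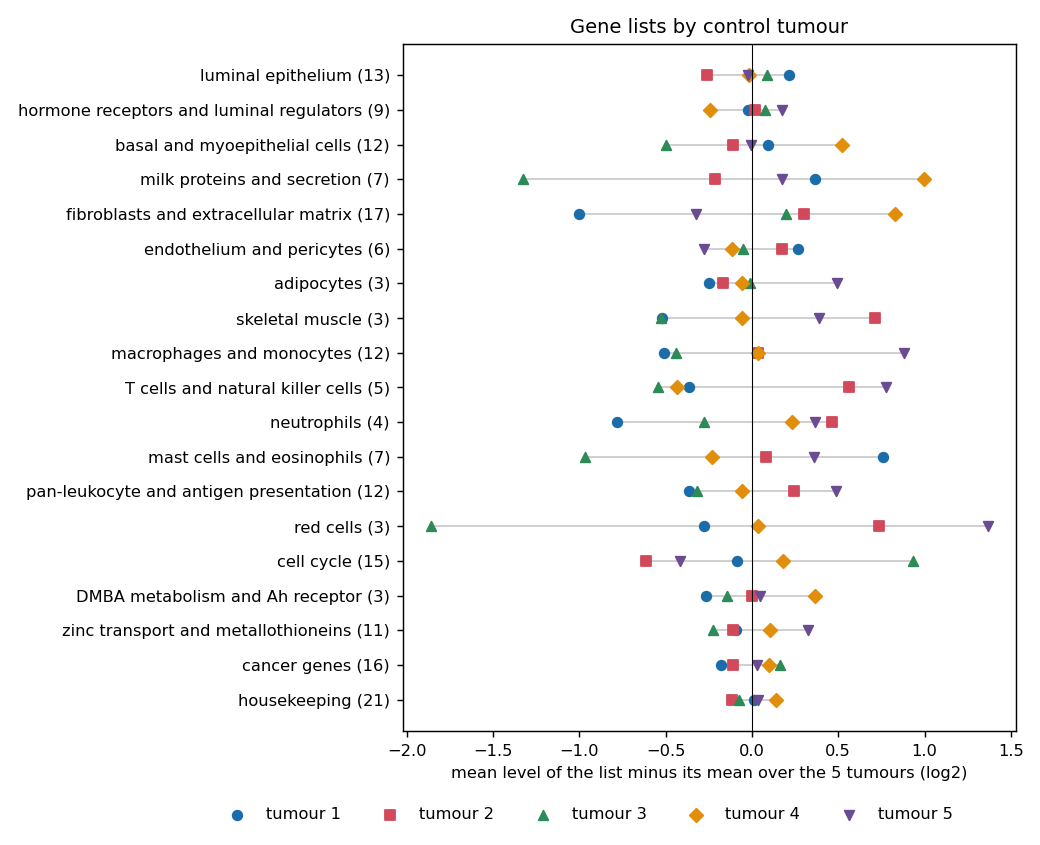
Mean level of each list's genes detected in all 5 control tumours (number in parentheses), as the difference from the list's own mean over the 5 (x axis, log2). Red cell genes span 3.23 units, milk genes 2.33 and matrix genes 1.83, against 0.25 for housekeeping genes and 0.48 for luminal genes; tumour 3 is highest for cell cycle genes and lowest for milk and red cell genes.

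Among cancer genes 16 of 19 were detected throughout (84.2%, against 45.9% of all genes), with no SD over 1. Hras, an oncogene that carries activating mutations in some carcinogen-induced rat mammary tumours, measured 4.54, 4.36, 4.86, 4.84 and 4.60; the arrays read its level and not its sequence. Cdkn2a, a cell cycle inhibitor, varied most of this list, at 0.29 and 0.43 in tumours 1 and 2 and 2.16, 2.37 and 1.63 in tumours 3 to 5. This division is also that of the scan days, and within scan days the SD of Cdkn2a was 0.32 against 0.97 over the 5; whether scanning had a part in it was not tested. Brca1 and Fgf3 were detected in none. Of 9 measured genes of DMBA metabolism 3 were detected throughout, led by the glutathione transferase Gstp1 at 6.58 ± 0.49, while Cyp1a1 was detected in none and Cyp1b1, an enzyme that activates DMBA, in 2.

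Zinc transport genes and metallothioneins were detected throughout in 11 of 17 cases (64.7%, against 45.9% of all genes). Mt1, a metallothionein that binds zinc and is induced by zinc and glucocorticoids, measured 4.32, 2.80, 3.11, 4.65 and 6.33 (SD 1.40), and Mt2A 3.38, 2.26, 2.43, 3.59 and 5.04 (SD 1.11). Both were highest in tumour 5 and lowest in tumour 2. The transporters detected throughout were steadier: the importer Slc39a6 stood at 3.87 ± 0.38 and the exporter Slc30a1 at -0.09 ± 0.18. The exporter Slc30a2, detected in all but tumour 2, was highest in tumour 5 (-0.57, against -2.45 to -2.28 in tumours 1, 3 and 4).

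The controls were set against the mean of the other diets to ask whether any gene marked them. None of 21015 tested probes was called by limma at an adjusted p under 0.05 (0%), and the lowest adjusted p was 0.748. An unadjusted limma p under 0.05 was found for 353 probes, fewer than the 5% of tested probes expected by chance. No alternative processing gave a call. The probe with the lowest adjusted p lay outside the genes named here. Among genes with a RefSeq symbol other than a locus number, each on the probe used, those with the smallest unadjusted p included Clk4. Clk4, a kinase of splicing factors, measured 2.75, 1.70, 1.45, 1.91 and 1.90 in controls. Its means were 2.61 ± 0.28 in deficient and 2.69 ± 0.12 in supplemented tumours. For Clk4 the difference was -0.71 (SE 0.19, limma adjusted p = 1.00). Cxcl1, a neutrophil-attracting chemokine, stood at 0.94 in controls against 2.13 and 2.30 (difference -1.28, SE 0.35, limma adjusted p = 1.00). On the other side, Mea1 stood at 2.57 against 2.17 and 2.21 (difference 0.38, SE 0.12, limma adjusted p = 1.00), and every control tumour lay between 2.42 and 2.69.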

How the data were processed

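Each of the 15 arrays was an Agilent 4x44K rat array hybridised with Cy3-labelled RNA amplified from 200 ng of total RNA, per the labels' protocols. The deposited scanner files hold spot intensity, background-subtracted and processed by Feature Extraction, whose version is 11.5.1.1 per the file headers and 15.5 per the submitters' processing notes. A deposited table of log2 values for 30002 probes, whose normalization is not given in the sources used here (column medians 7.09 to 7.10, correlation with log2 median signal 0.984 to 1.000), served as an alternative.

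Control spots were dropped, spots of a probe averaged, and log2 processed signals centred on each array's 75th percentile. Of 41012 probes, 17502 (42.7%) matched 1 RefSeq (GRCr8) gene by accession, and each of the resulting 13832 genes is shown by its probe with the highest mean level over the 15 arrays. Probes detected on at least 5 arrays were tested with limma 3.58.1 (R 4.3.3; lmFit and eBayes, 3 group means, two-sided, Benjamini-Hochberg over 21015 probes), a step tested on simulated data. SDs and counts of detected genes are descriptions without a test. Normexp correction used the median spot and background signals (offset 50), since the files used here carry no mean signal. The arrays came from 4 slides and 2 scan days. The number of arrays limits the precision.

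Genes named were the 10 brightest, the 10 steadiest at a level of at least 0, the 20 most variable, the 8 highest detected in 1 to 4 control tumours, the 3 brightest and the most variable of each of 26 lists, a fixed set of receptors, keratins, milk and other marker genes, and the 4 with the smallest p in each direction; list members were added as values. Members of the lists without a matched probe, such as Mki67, Acta2 and Cd79a, were not analysed here. The group, the lists and the limits were chosen with earlier results of these data known.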

Additional observations from a re-analysis of the deposited data

Results flagged for a closer look

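Among 161 named genes and 21 lists, 10 genes and 0 lists had a tumour standing apart from the other 4 by more than Dixon's limit of 0.71 of the group's range. Chance alone flags about 1 in 20, and 10 of 161 is close to that; the rate does not hold for genes named because they varied or were detected in a few tumours, such as Cd52, Emx2, Fam228a and Gys2. Tumour 5 was the high one for Rpl35 (gap 0.758 of the range), Pou2af1 (0.873, not detected in tumour 2) and Fam228a (0.756), the last detected in that tumour only, and the low one for Krt8 (0.859), where it measured 2.77 against 3.12 to 3.18. Tumour 4 was the high one for Cd52 (0.766), a leukocyte surface glycoprotein at 3.79 against -1.32 to -0.13, and for Gys2 (0.756), the liver glycogen synthase, at 2.04 and detected there only. It was the low one for Emx2 (0.829), a homeobox gene, which was not detected there (a bound of -3.20) and stood at 1.34 to 2.27 elsewhere. Tumour 2 was the low one for Cldn7 (0.747). The gaps of Elf5 (0.736) and Dsg3 (0.902), a desmosomal cadherin, rest on tumours in which they were not detected (2 and 3 for Elf5, 2 and 5 for Dsg3), so they give no order.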

How the results depend on the processing

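Counts of detected genes ranged from 6362 to 7074 without each control tumour in turn, and were 9496 with the scanner's weaker criterion (signal positive and significant), 7240 for detection in at least 4 tumours and 6369 for any probe of a gene. The count of genes with an SD over 1 fell from 106 to 40 after normexp and quantile normalization and to 47 in the deposited values (100 after quantile normalization alone), was 226 with detection in 3 tumours, and lay between 108 and 129 without each control tumour in turn. Settings added after seeing the data gave 128 without the 2 dim arrays and 133 with the scan day as a block. No call against the other diets appeared under any setting run, leave-one-out fits included (lowest adjusted p 0.122, without supplemented replicate 5). With the replicate block 0 probes were called and the lowest adjusted p was 1; same-numbered tumours did not pair (correlations of their deviations -0.28 to 0.22), so the numbers were not used otherwise. Levels near the array background are bounds, and the dim arrays set the detection limit.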

Other observations

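Genes detected in some control tumours and bright there lay outside most lists. Pcdh17, a protocadherin, measured 2.43, 0.93, -0.60, 0.73 and -2.66 and was detected in all but tumour 5, where the value is a bound. Wfdc18, a small secreted whey-acidic-protein-domain gene, measured 1.24, -0.79, -2.40, 0.07 and 1.81. It was detected in all but tumour 3, where the value is a bound. Fam228a was detected in tumour 5 alone, at 1.74. Gys2 was detected in tumour 4 alone on the probe used, and a second Gys2 probe was also highest there (-1.52) and detected on 1 array. A second Emx2 probe was likewise lowest in tumour 4, at -3.40 against -0.02 to 1.04.

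Second probes bore on other variable genes as well. Hapln2 had a second probe with 1.18 in tumour 5 and -2.72 to -0.63 in the other tumours, and both further Fkbp5 probes were highest in tumour 5 (0.61 and 0.09). For Spink5 a second probe was highest in tumours 2 and 3 (0.49 and 0.62). A second Cilp probe was detected in none of the control tumours, so the pattern of Cilp rests on the probe used. Of the 4 Rps2 probes 1 was low in tumour 3, at 6.76 against 7.96 to 8.71, and the other 3, the probe used among them, were not (8.99, 6.89 and 7.04 there).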
